A study of Equus caballus with 14 samples.

Results

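The light strand of the mitochondrial DNA encodes a minority of the mitochondrial tRNAs, and 7 probes of an equine oligonucleotide microarray read 7 of them: TRNQ (glutamine), TRNA (alanine), TRNN (asparagine), TRNC (cysteine), TRNY (tyrosine), TRNP (proline) and TRNE (glutamate), listed as Gln-ARNt_TRNQ, Ala-ARNt_TRNA, Asn-ARNt_TRNN, Cys-ARNt_TRNC, Tyr-ARNt_TRNY, Pro-ARNt_TRNP and Glu-ARNt_TRNE. They were chosen by gene name from the study's probe list. No measured value enters that rule, but the set was drawn up with earlier results of these data known. They are 7 of the 24493 probes of the value table, 7 of its 384 equine probes, 7 of its 50 mitochondrial probes and 7 of its 22 mitochondrial tRNA probes. In skeletal muscle with polysaccharide storage myopathy (PSSM), every one of the 7 was called lower than in the pool of control muscles. So were 19.9% of the tested equine probes. The drop ran from 4.83-fold for TRNQ to 1.49-fold for TRNE, on the mean of 7 horses.

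Mitochondrial DNA is transcribed as long precursors from both strands, and the tRNAs that lie between the other genes mark the places where the precursors are cut into single RNAs. In mammals the light strand gives a set of scattered tRNAs and 1 protein gene, ND6, a subunit of respiratory complex I. The heavy strand gives the rRNAs, the other mRNAs and most of the tRNAs. Each mitochondrial tRNA carries 1 amino acid to the mitochondrial ribosome, which makes only subunits of the respiratory chain and of the ATP synthase. Skeletal muscle, rich in mitochondria, depends on these subunits for its aerobic energy supply.

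The samples were biopsies of the gluteus medius muscle of adult Norman Cob horses of both sexes. The PSSM group held 7 horses (numbers 5, 12, 32, 38, 42, 44 and 54) as the labels name them. The study defines PSSM by amylase-resistant polysaccharide in the muscle fibers and states that PSSM horses carried the GYS1 mutation in 1 or both copies and controls the wild type. Its list of horses does not hold a horse 5, and it holds 1 PSSM horse that no label names. Whether these are the same animal is not stated. The histology and genotype of horse 5 are thus not given in the sources used here. The mean of each tRNA without horse 5 is given beside the mean of all horses. Each PSSM muscle was hybridized on 2 microarrays with the Cy3 and Cy5 dyes swapped, 14 microarrays in all. Its partner on all 14 was a single pool of amplified RNA from the muscles of 6 sound horses, so the control is 1 sample and the spread between control horses is in no error given here. All RNA had been amplified by in vitro transcription before labeling. In whole muscle RNA, fewer cells of a type and less RNA per cell cannot be told apart.

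Values are normalized ratios of PSSM over control on the log2 scale, where -1 stands for a signal halved in PSSM muscle. The 2 microarrays of a horse were averaged, n is the number of horses, and each error is the SD over them. Neither the labels nor the methods name the channel in the numerator. The methods define the ratio as PSSM over control. Read as Cy5 over Cy3 and turned to PSSM over control, the values of all 14 microarrays end at the same lower limit of 0.01. The mean ratios of the 7 tRNAs then equal, to 2 digits, those that the study lists for them. The direction given here is the likely one on these grounds. The number of horses and microarrays limits the precision. The error of a horse mean from its repeat was 0.11 to 0.46 in the 7 tRNAs, below the SD over horses (0.23 to 0.96) for each of them. Between 7674 and 17071 probes, 321 to 376 of them equine, had a value on a microarray. All 7 light-strand tRNA probes had one on every microarray. Signals of the single channels were not read, so a control at its lowest level was only inferred, from round values of the ratio. None of the 98 values of the 7 probes had this mark, against 116 of the 4980 equine values. In horses 12 and 32 the swapped microarrays differed from each other over the 50 mitochondrial probes (r across probes -0.165 and 0.0655, a description, since probes are not independent), whereas r was 0.411 to 0.744 in the other horses. The microarray of horse 54 with PSSM in Cy5 had a median log2 ratio of -0.39 over the equine probes, below the -0.26 to -0.02 of the other microarrays. Genes of several cell types were read as well, but a ratio of muscle over muscle cannot check the muscle label. Of all tested equine probes 19.9% were called lower and 4.43% higher (limma adjusted p under 0.05). Counts of lower or higher genes and probes below use this call. Of 8 skeletal muscle fiber genes 1 was lower and none higher (median log2 ratio -0.06, from -0.68 for ATP2A1 to 0.37 for ACTN2). Of the 8 tested leukocyte genes 1 was higher (median 0.40, from -0.18 to 0.77) and of the 4 fibroblast genes 1 was higher (median 0.71, from 0.28 for COL1A1 to 1.65 for LUM). Of the 4 cardiac or smooth muscle genes 1 was lower (median -0.13, from -0.32 for TNNI3 to 0.24 for MYL9). The part of these cell types in the tRNA values was not tested.

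The probes are 50 nucleotides long, and their names give a position on the horse mitochondrial sequence (chromosome MT), given here counted from 1. TRNQ (3812 to 3861) lies between the heavy-strand tRNAs for isoleucine and methionine. TRNA (5067 to 5116), TRNN (5141 to 5190), TRNC (5241 to 5290) and TRNY (5308 to 5357) follow each other between TRNW and COX1, in the cluster that in mammals surrounds the origin of light-strand replication. TRNE (14131 to 14180) lies between ND6 and CYTB. All 7 probes end before the next listed gene starts, so each spans most of 1 tRNA gene by these positions. The strand a probe detects is not stated in the sources used here, and whether the signal came from mature tRNA or from longer transcripts was not tested.

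The name and the position of the TRNP probe do not match. It is listed at 6917 to 6966, just before TRND, where mammals encode the light-strand tRNA for serine that reads UCN codons. The proline tRNA gene of mammals lies beside TRNT at the other end of the gene order. Another doubt of this kind is that the probes TRNS1 and TRNS2 have the same listed gene start. Both the proline and the UCN serine tRNA are read from the light strand in mammals, so the probe belongs to the set under either reading, but which of them it detects cannot be told apart here. It is called TRNP below.

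The question of the comparison was which transcripts differ between PSSM and control muscle. Tested with limma against no change (p-values adjusted by Benjamini and Hochberg's method across 361 equine probes), all 7 light-strand tRNA probes were down-regulated, beside 72 of 361 equine probes (19.9%). All 7 were also called with any 1 horse left out, horses 12 and 32 included, and without the microarray of horse 54 with PSSM in Cy5. No light-strand tRNA was up-regulated, beside 16 equine probes (4.43%). The median log2 ratio of the 7 was -1.53, against -0.08 over all tested equine probes and -0.04 over the 311 nuclear ones. Among the 361 probes in order of their means, TRNQ, TRNC, TRNN, TRNY and TRNA held places 1 to 5 from the lowest, TRNP place 9 and TRNE place 37. Every horse was below the pool for each of the 7, which was so for 17.6% of the equine probes with values from all horses.

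TRNQ, the glutamine tRNA, had the lowest mean. Its log2 ratio was -3.46 in horse 38, -3.14 in horse 5, -2.75 in horse 32, -2.0 in horse 12, -1.91 in horse 44, -1.40 in horse 42 and -1.24 in horse 54, or a level between 0.0912 and 0.423 of the control pool. The mean was -2.27 ± 0.86 (SD, n = 7, 95% confidence interval -2.89 to -1.66, limma adjusted p = 0.00164). All 14 microarrays were below 0. TRNI, its heavy-strand neighbour, was likewise lowest in horse 38 (-2.49) and highest in horse 54 (0.15).

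The 4 tRNAs of the cluster before COX1 had the same outline in the horses. TRNC, for cysteine, was lowest in horse 5 at -3.49, had a median of -1.41 and was highest in horse 12 at -0.87 (mean -1.85 ± 0.92, limma adjusted p = 0.00227). TRNN, for asparagine, went from -3.07 in horse 5 through a median of -1.42 to -0.90 in horse 12 (mean -1.60 ± 0.83, limma adjusted p = 0.00295). TRNY, for tyrosine, went from -2.94 in horse 5 through a median of -1.36 to -0.92 in horse 12 (mean -1.53 ± 0.74, limma adjusted p = 0.00227). Horse 5 was the lowest and horse 38 the second lowest for each tRNA of this cluster. TRNW, the adjacent heavy-strand tRNA, was also lowest in horse 5 (-1.97) and highest in horse 12 (-0.55). TRNA, for alanine, was at -3.31 in horse 5 and -2.36 in horse 38, whereas the other 5 horses lay between -1.24 and -0.72 (mean -1.51 ± 0.96, limma adjusted p = 0.0081). Without horse 38 the mean of TRNA was -1.37. Without horse 5 the means were -2.13 for TRNQ, -1.58 for TRNC, -1.36 for TRNN, -1.30 for TRNY and -1.22 for TRNA, and each was still called.

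TRNP had another order of horses. Its log2 ratio was -2.38 in horse 54, -2.15 in horse 42, -1.39 in horse 44, -1.12 in horse 38, -0.94 in horse 12, -0.87 in horse 32 and -0.67 in horse 5. Horse 5, the lowest for the cluster before COX1, was thus the highest for this probe. The mean was -1.36 ± 0.66 (n = 7, 95% confidence interval -1.85 to -0.87, limma adjusted p = 0.00227), and without horse 5 it was -1.48.

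TRNE, for glutamate, changed least. It went from -0.89 in horse 54 and -0.87 in horse 44 through a median of -0.55 to -0.25 in horse 12 (mean -0.58 ± 0.23, n = 7, 95% confidence interval -0.80 to -0.35, limma adjusted p = 0.00348), and without horse 5 the mean was -0.60. In each of the 7 horses TRNE was the highest of the 7 light-strand tRNAs. The lowest was TRNQ in horses 12, 32, 38 and 44, TRNC in horse 5 and TRNP in horses 42 and 54.

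**Figure D1:**
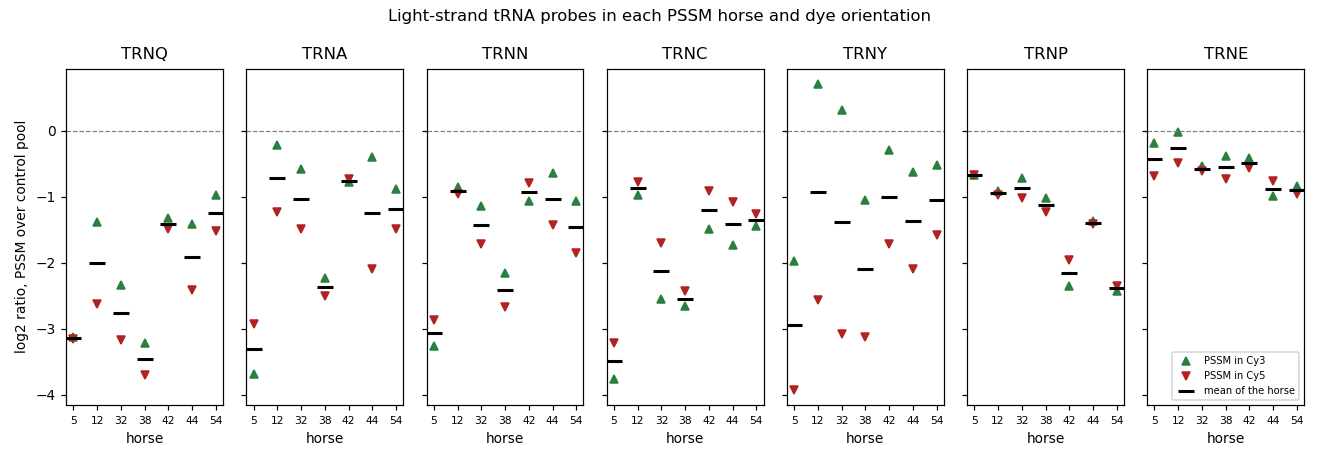
Log2 ratio of PSSM over control pool (vertical axis) in each horse (horizontal axis), 1 panel per light-strand tRNA probe. Triangles are single microarrays by the dye of the PSSM muscle and bars are the means of a horse, with TRNQ, TRNA, TRNN, TRNC and TRNY lowest in horses 5 and 38 and TRNP lowest in horses 54 and 42.

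The 21 pairs among the 7 were compared within horses by an exact two-sided sign-flip test, whose smallest p with 7 horses is 0.0156, with Benjamini-Hochberg adjustment over the pairs. TRNE was higher than each of the other 6 in every horse, by 0.78 ± 0.57 log2 units against TRNP and by 1.69 ± 0.96 against TRNQ (adjusted exact p = 0.041 for each). TRNQ was lower than TRNY in 7 of 7 horses (difference -0.74 ± 0.52, adjusted exact p = 0.041). TRNA was higher than TRNC in 7 of 7 horses, by 0.34 ± 0.35 (adjusted exact p = 0.041). The other 13 pairs did not pass. Neighbours in the order of the means that could not be separated by the spread between horses were TRNQ and TRNC (difference -0.42 ± 0.53, adjusted exact p = 0.151), TRNN and TRNC (0.25 ± 0.28, 0.137), TRNN and TRNY (-0.07 ± 0.25, 0.54), TRNA and TRNY (0.02 ± 0.28, 0.859) and TRNA and TRNP (-0.15 ± 1.40, 0.859). Only the step from TRNP to TRNE exceeded that spread. With any horse left out none of the 21 passed. The smallest exact p with 6 horses is 0.0312, and no pair stayed under 0.05 after adjustment over the 21.

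The other mitochondrial probes were set beside these values in the listed gene order. Of the 15 other tRNA probes 11 were lower and none higher (median log2 ratio -0.70). Their lowest were TRNT, for threonine (-1.34 ± 0.86), and TRNW, for tryptophan (-1.31 ± 0.56, limma adjusted p = 0.00227). The highest was TRNS1 (0.22 ± 0.18, limma adjusted p = 0.106), a serine tRNA probe that may belong to the light strand. Its direction depended on the dye, at -0.33 with PSSM in Cy3 and 0.76 with PSSM in Cy5. TRNS2, with the same listed gene start, was at -1.01 ± 0.42, from -0.06 with PSSM in Cy3 and -1.95 with PSSM in Cy5. Both ND6 probes were lower (-0.68 ± 0.29 and -0.52 ± 0.28). Of the 24 heavy-strand mRNA probes 10 were lower and 2 higher (median -0.19), and neither rRNA probe passed (RNR1 -0.13 ± 0.32 and RNR2 -0.09 ± 0.35). The median of the light-strand tRNAs was below the median of the other tRNAs in each horse, with the widest gap in horse 5 (-3.07 against -0.41) and the narrowest in horse 12 (-0.90 against -0.54).

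The mRNA probes that flank the light-strand tRNAs had these levels. COX1, whose probes follow TRNY and precede the TRNP probe, encodes the catalytic core of complex IV and was the gene with the 2 up-regulated heavy-strand mRNA probes (0.45 ± 0.27, limma adjusted p = 0.0155, and 0.33 ± 0.25, limma adjusted p = 0.045). Their direction depended on the dye, at -0.25 and -0.42 with PSSM in Cy3 against 1.14 and 1.08 with PSSM in Cy5. The ND2 probe ahead of TRNW was at -0.48 ± 0.24 and the nearer ND1 probe ahead of TRNI at -0.04 ± 0.32. The adjacent CYTB probe after TRNE was at -0.24 ± 0.27.

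**Figure D2:**
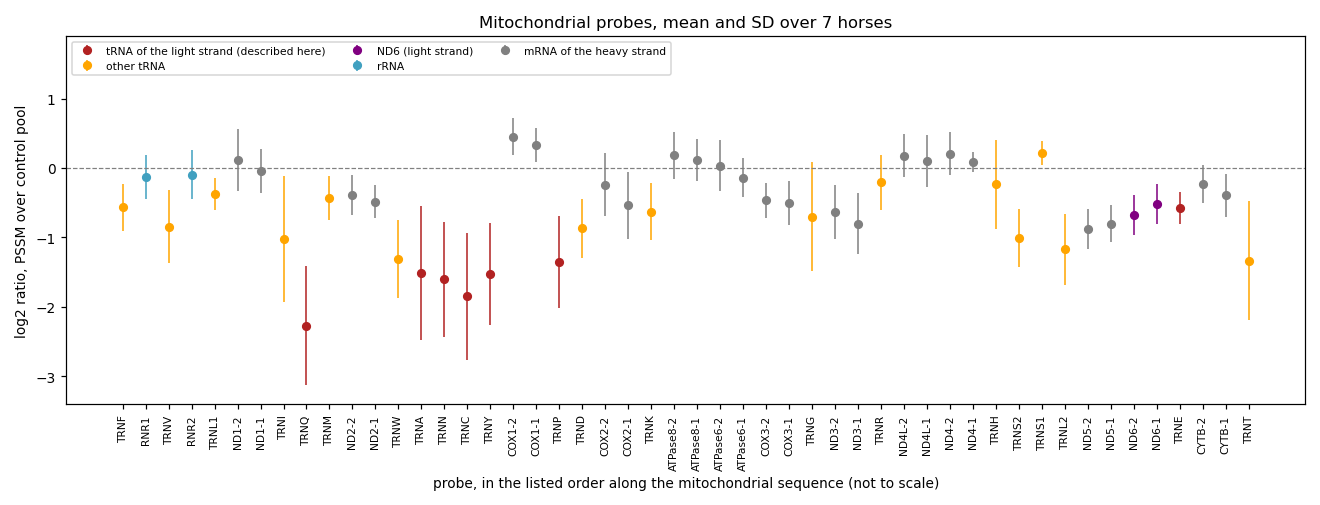
Mean log2 ratio of PSSM over control pool with SD over 7 horses (vertical axis) for the 50 mitochondrial probes in their listed order (horizontal axis, not to scale), colored by kind of gene. The means of TRNQ at -2.27 and of the run TRNA, TRNN, TRNC and TRNY between -1.85 and -1.51 lie below those around them. No tRNA of the run differed within horses from the adjacent TRNW (-1.31) in the exact test. TRNE at -0.58 lies level with the ND6 probes next to it.

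To set the strand of the gene against position, each light-strand tRNA was compared within horses with the nearest heavy-strand tRNA probe (exact two-sided sign-flip test, Benjamini-Hochberg adjustment over the 7 pairs). None of the 7 differences passed after adjustment, and 2 had an unadjusted p under 0.05. A single pair at the smallest exact p of 7 horses, 0.0156, reaches only 0.109 after adjustment over 7. TRNQ was below TRNI, its neighbour for isoleucine 69 nucleotides away, in 7 of 7 horses (difference -1.25 ± 0.50, exact p = 0.0156, adjusted 0.109). The horses ranged from -2.20 to -0.84. TRNP was below TRND, for aspartate, in 6 of 7 horses (difference -0.49 ± 0.49, exact p = 0.0312, adjusted 0.109).

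The tRNAs of the cluster before COX1 were close to TRNW, the heavy-strand tRNA at its edge. The difference was -0.20 ± 0.68 for TRNA (exact p = 0.469), -0.29 ± 0.65 for TRNN (exact p = 0.266), -0.54 ± 0.63 for TRNC (exact p = 0.0938) and -0.22 ± 0.46 for TRNY (exact p = 0.234). Horses 42 and 44 had the 4 tRNAs above TRNW, horses 5, 12, 38 and 54 had them below, and horse 32 had TRNA alone above. TRNE was above TRNT, its nearest heavy-strand tRNA but 1218 nucleotides away, in 5 of 7 horses (0.76 ± 0.72, exact p = 0.0625).

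A pair of comparisons was added after the values had been seen. Against TRNM, the methionine tRNA on its other side, TRNQ was lower in 7 of 7 horses (difference -1.84 ± 0.77, exact p = 0.0156, adjusted over the added pair 0.0312). TRNM itself was at -0.43 ± 0.32, so the probe in the middle of the 3 adjacent tRNAs was the lowest. The TRNP probe, set against TRNT, the neighbour of the proline gene in mammals, differed by -0.02 ± 0.36 (exact p = 0.891), and TRNT was also lowest in horses 54, 42 and 44.

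ND6, the protein gene of the same strand, allowed a comparison between genes of that strand, although the strand that the probes detect is not stated. The mean of its 2 probes was subtracted in each horse (exact two-sided sign-flip test, adjustment over 7). TRNQ was lower than ND6 by a log2 difference of -1.67 ± 0.95, TRNC by -1.25 ± 0.95, TRNN by -1.0 ± 0.82, TRNY by -0.93 ± 0.75, TRNA by -0.92 ± 0.93 and TRNP by -0.76 ± 0.59. Each of these 6 was lower in 7 of 7 horses (adjusted exact p = 0.0182 for each). TRNE, which lies beside ND6, differed from it by 0.02 ± 0.18 (exact p = 0.781, horses from -0.31 to 0.21). With PSSM in Cy3 alone, 3 of the 6 passed. TRNY was then at -0.05 from ND6 (adjusted exact p = 0.875), while TRNP (-0.91, 0.0547) and TRNA (-0.81, 0.109) missed the threshold at differences near those above.

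**Figure D3:**
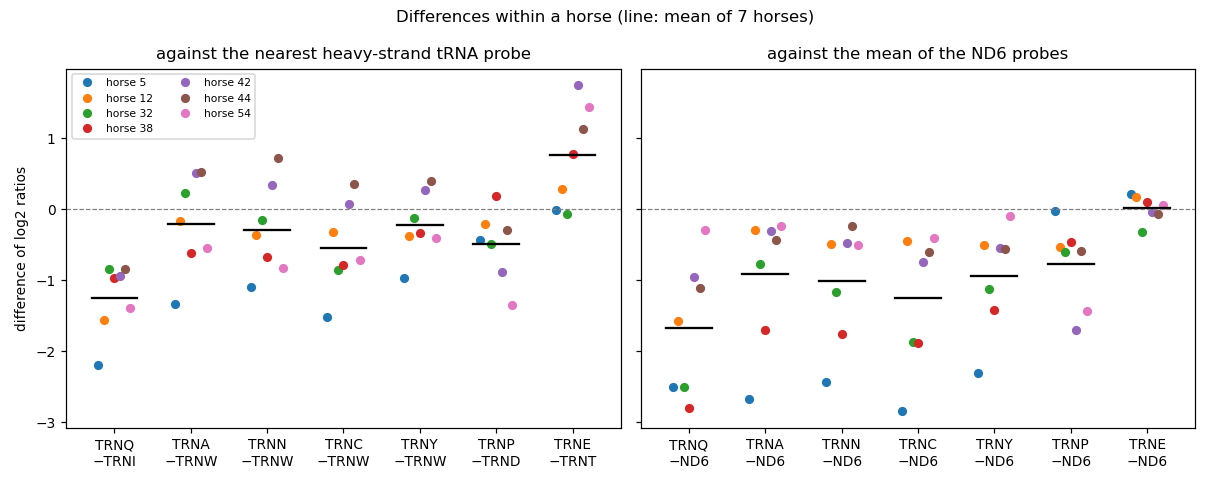
Difference of log2 ratios within a horse (vertical axis) between each light-strand tRNA probe and its nearest heavy-strand tRNA probe (left) or the mean of the ND6 probes (right), with 1 point per horse and a line at the mean. TRNQ lies below TRNI in all 7 horses, and every light-strand tRNA but TRNE lies below ND6 in all 7 horses.

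The dye orientation was examined because each value joins 2 microarrays. With PSSM in Cy5 all 7 tRNAs were called lower than the pool, as were 23.4% of the equine probes. With PSSM in Cy3 6 of 7 were called lower, beside 30.0% of the equine probes. TRNY, the remaining one, had a mean below 0 but did not pass. The difference between the orientations passed for 3 of the 7, and for 55.0% of the equine probes. It was lower with Cy5 for 2 of the 7 (26.3% of equine probes) and higher for 1 (28.7%). All 14 microarrays were below 0 for 6 of the 7 tRNAs, which was so for 8.70% of the equine probes with 14 values.

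TRNY carried the widest dye difference. With PSSM in Cy3 it was at 0.71 in horse 12, 0.31 in horse 32, -0.29 in horse 42, -0.52 in horse 54, -0.63 in horse 44, -1.05 in horse 38 and -1.97 in horse 5. With PSSM in Cy5 the horses went from -3.92 in horse 5 to -1.57 in horse 54, so the orientations overlapped only through horse 5. The mean was -0.49 ± 0.88 in Cy3 (limma adjusted p = 0.161) and -2.58 ± 0.85 in Cy5, a difference of -2.09 ± 0.91 (limma adjusted p = 0.00024). The call for TRNY therefore rested on the microarrays with PSSM in Cy5. TRNS2 was the other tRNA with a difference of this size (-1.89 ± 0.93).

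The dye difference was smaller in the other members. It was -0.62 ± 0.44 for TRNQ, lower with Cy5 in 7 of 7 horses (limma adjusted p = 0.00715), and 0.46 ± 0.26 for TRNC, lower with Cy3 in 7 of 7 (limma adjusted p = 0.00814). TRNA (-0.53 ± 0.80, limma adjusted p = 0.0882), TRNN (-0.30 ± 0.49), TRNE (-0.21 ± 0.26) and TRNP (-0.02 ± 0.22) did not pass. The widest gap of TRNA was in horse 44, at -0.39 with Cy3 and -2.10 with Cy5. TRNP repeated most closely, with an error of the horse mean from the repeat of 0.11 against 0.46 for TRNY.

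**Figure D4:**
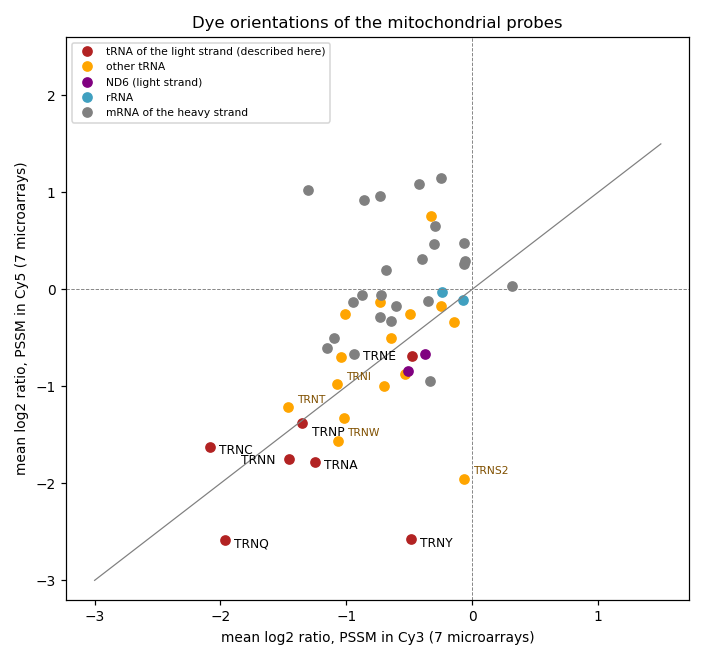
Mean log2 ratio of PSSM over control pool over the 7 microarrays with PSSM in Cy5 (vertical axis) against the 7 with PSSM in Cy3 (horizontal axis) for the 50 mitochondrial probes, with the line of equality. TRNP lies on the line, TRNC above it and TRNQ below it, and TRNY at -0.49 and -2.58 lies farthest from it among the light-strand tRNAs.

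The probes outside the set with values most like its mean profile over the 14 microarrays were found among 292 equine probes by the root mean square (RMS) difference of log2 ratios. They were TRNW (0.473), TRNL2, for leucine (0.818), and PDE4D, a cyclic AMP phosphodiesterase (0.946). Within the 22 tRNAs, looked at after the values had been seen, TRNA and TRNN were nearest to each other (0.361), as adjacent genes of the cluster. The nearest to TRNP was TRNT (0.408), and the nearest to TRNE was TRNL1 (0.397). The nearest to TRNY was TRNS2 (0.906), the other tRNA with a wide dye difference.

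Nuclear genes that make, cut, modify, charge or use mitochondrial tRNAs were read from a list. Of 6 equine probes 1 was lower and none higher, beside 42 lower and 14 higher of the 311 nuclear equine probes. It was Slc25a26, which imports the methyl donor S-adenosylmethionine into mitochondria (-0.75 ± 0.53, limma adjusted p = 0.0148), and it did not pass with adjustment over all probes of the table (adjusted p = 0.0601). Tfb2m, a transcription factor of both mitochondrial strands, was at -0.12, Tsfm, of translation elongation, at -0.13 and Fars2, which charges the phenylalanine tRNA, at -0.07. Above 0 were Tk2, of DNA precursor supply, at 0.18 and Mto1, of tRNA modification, at 0.16. Of 52 mouse symbols 38 were on the mouse probes printed on the same slides, which horse RNA meets across species, and 25 probes were tested. None passed by limma after adjustment, where 1.36% of the mouse probes were called lower and 0.452% higher. An unadjusted p under 0.05 was seen for 7, in both directions. Hsd17b10, Trit1, Hars2 and Aars2 were below 0, and Cdk5rap1, Pnpt1 and Nars2 above 0. The share of all mouse probes at that unadjusted level was not computed, so the 7 cannot be set against it. The median of the 25 was -0.01. The largest changes were those of Lars2 (-0.57 ± 0.81, n = 7, limma adjusted p = 0.275) and Hars2 (-0.46 ± 0.43, n = 6, limma adjusted p = 0.166). These are the mitochondrial leucine and histidine tRNA synthetases.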

How the data were processed

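Muscle RNA of 7 PSSM horses was compared with 1 pool of 6 controls on 14 spotted 2-color microarrays. The authors scanned the slides, quantified them with GenePix Pro 6.0 and applied a Lowess normalization in GeneSpring, for each spot and slide. The deposited values are natural logarithms (ln) of a ratio of the channels, read here as Cy5 over Cy3. The dyes come from the labels. That the deposited ratio runs as Cy5 over Cy3 is written in neither labels nor methods, which define only PSSM over control. It was taken so because, once turned that way, the lower end was 0.01 on all 14 microarrays. Turned that way, the mean ratios of the 7 tRNAs also equal, to 2 digits, those that the study lists, from 0.21 for TRNQ to 0.67 for TRNE. Background correction and the rule behind empty cells are not given in the sources used here. Yeast tRNA was among the nucleic acids that the methods add before hybridization.

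Values were turned, converted to log2 and averaged per horse. Probes with at least 5 horses were tested with limma 3.58.1 in R 4.3.3 (statmod 1.5.0 for the block fit), with a threshold of 0.05 after adjustment, and checked on simulated data. The methods name a t-test of the ratios, run as an alternative. Differences used exact sign-flip tests in Python 3.11.15 (pandas 2.3.3, numpy 2.4.6, scipy 1.17.1, matplotlib 3.10.9). Members, lists and comparisons were chosen with earlier results of these data known. Named genes are the 7 tRNAs, their heavy-strand partners, ND6, the 2 lowest and 2 highest other tRNA or rRNA probes, listed nuclear genes that passed or the 2 largest, and the 3 nearest profiles. Other genes were named after their values were seen. Probe sequences were not used here. Alternatives were each dye alone, centring, the mean of linear ratios, robust limma, the t-test, a block fit, other filters and adjustments, and leaving out each horse or the horse 54 microarray with PSSM in Cy5.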

Additional observations from a re-analysis of the deposited data

How the results depend on the processing

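The 7 light-strand tRNA probes were called lower under every one of the 20 alternatives tried but for TRNY with PSSM in Cy3 only (-0.49, limma adjusted p = 0.161), where 6 remained. Centring on the equine probes moved the median by 0.12 and turned the equine calls from 16 higher and 72 lower to 38 and 45. With adjustment over all probes there were 5 and 42, without horse 38 10 and 49, and with each dye alone 63 and 107 (Cy3) and 32 and 81 (Cy5).

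With adjustment over the 7 pairs, no difference from a heavy-strand neighbour passed under the alternatives tried, TRNM or TRNT as partner included. TRNQ against TRNM passed when adjusted over the added pair of comparisons only (0.0312). That of TRNY turned to 0.58 with PSSM in Cy3 only and to 0.14 with the mean of linear ratios. The number of ND6 differences that passed fell to 3 with PSSM in Cy3 only and to 5 with the mean of linear ratios (TRNY -0.57, adjusted exact p = 0.0547). The ND6 difference of TRNE, near 0, turned to -0.033 with PSSM in Cy3 only, -0.00605 without the horse 54 microarray with PSSM in Cy5 and -0.0579 with the first ND6 probe alone, and ranged from -0.0122 to 0.0755 with a replicate left out (below 0 without replicate 5 or 12). The dye difference of TRNP, also near 0, ranged from -0.0911 to 0.0226 with a replicate left out (above 0 without replicate 32 or 38). The dye difference of TRNA passed without replicate 5 (-0.74, limma adjusted p = 0.0137). The number of differences between the light-strand tRNAs that passed went from 8 to 0 with any replicate left out. With 6 horses the smallest exact p is 0.0312 before adjustment over the 21 pairs. The fit of 14 microarrays with the horse as a replicate block called 7 of 7.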
